A study of Mus musculus with 46 samples.

Results

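The liver releases peptide hormones that act on appetite, growth, lipid handling and iron. Of the 25494 genes counted, 9 that encode such secreted factors are described here: Fgf21, Gdf15, Inhbe, Igf1, Fst, Angptl4, Angptl6, Ahsg and Hamp. They were taken as a fixed list of symbols, which was chosen with earlier results of these data known. All 9 were expressed well enough to be tested. The livers came from male C57BL/6 mice that arrived at 5 weeks of age and were then fed 1 of 2 diets for 20 weeks. In the lipid-rich diet (LD, named HFD in the labels) lipid gave 60% of the energy and carbohydrate 20%. In the carbohydrate-rich diet (CD, named LFD in the labels) lipid gave 10% and carbohydrate 70%, and protein gave 20% in both. The labels name no genotype or agent other than the diet for either group. RNA-seq was made from 5 mice per diet, H3K27ac ChIP-seq from 3 samples per diet, and Hnf4α and C/EBPα ChIP-seq and promoter capture Hi-C (PCHi-C) from 2 samples per diet each.

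Fgf21 signals through FGF receptors that are paired with the coreceptor beta-Klotho, and hepatocytes raise it in fasting and under cellular stress. Gdf15 acts on a receptor of the hindbrain and is induced by stress, and the activin subunit encoded by Inhbe is made mainly in hepatocytes. Igf1 carries the growth hormone signal from the liver to other tissues, follistatin (Fst) binds and neutralises activins, and hepcidin (Hamp) closes the iron exporter ferroportin. Angptl4 inhibits lipoprotein lipase, Angptl6 is a related circulating factor, and fetuin-A (Ahsg) is an abundant plasma glycoprotein that inhibits the insulin receptor.

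The RNA-seq libraries held 31707963 to 39012699 counts, and within a diet they correlated at 0.986 to 0.996. Albumin (Alb) had a log2 fold change of -0.07 (0.0087 on the log2(TPM + 1) scale) and an adjusted p of 0.614 in edgeR's quasi-likelihood test. The summed level of 9 hepatocyte markers was 80610 to 98240 CPM (counts scaled to the library size) on LD and 86870 to 103000 on CD, and 3 of the 9 were lower on LD (4 by DESeq2). Of 9 macrophage markers 2 were higher on LD, with a summed level of 504.5 to 1340 CPM against 400.8 to 804.7. Of 8 stellate cell markers 3 were higher, with 704.2 to 1015 CPM against 595.5 to 728.3, and 4 by DESeq2 and 5 by limma on log2(TPM + 1). Lymphocyte markers summed to 30.2 to 71.1 CPM against 23.6 to 31.6, with 1 of 7 higher, which was 0 with DESeq2's size factors in edgeR and 2 by limma on log2(TPM + 1). Cholangiocyte markers summed to 45.9 to 121.2 CPM against 18.8 to 32.1, with 1 of 5 higher. Of 7 endothelial markers 1 was higher, at 438.1 to 604.3 CPM against 478.3 to 599.4. Of 5 adipocyte markers only the lipid droplet gene Cidec was expressed enough to be tested, at 94.4 ± 39.7 CPM on LD against 2.17 ± 0.69 on CD (SD, n = 5 each), while Adipoq, Lep, Plin1 and Retn were at or near 0. What part these differences have in the levels of the hormone genes was not tested, and in bulk liver fewer cells of a type and less RNA per cell cannot be told apart.

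Livers on LD held more Gdf15, Fgf21 and Inhbe RNA and less Hamp, Fst, Igf1 and Ahsg RNA than livers on CD. Calls required an adjusted p under 0.05 (Benjamini-Hochberg, over all 13494 genes tested) together with a fold change above 1.2. By this rule 7 of the 9 hormone genes were called, against 24.9% of all genes tested. Of these, 3 were higher on LD (13.8% of all genes) and 4 were lower (11.1%). As the list was chosen with earlier results of these data known, these shares are descriptions and no measure of enrichment. On the log2(TPM + 1) scale limma called the same numbers of members, while all genes split into 2227 higher and 740 lower there, against 1859 and 1498 in edgeR. For 3 of the 9, Igf1, Ahsg and Hamp, every LD mouse lay below every CD mouse, and the mice of the diets did not overlap for 18.5% of all genes. The median log2 fold change was -0.25 over the 9 genes and -0.0019 over all genes.

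**Figure D1:**
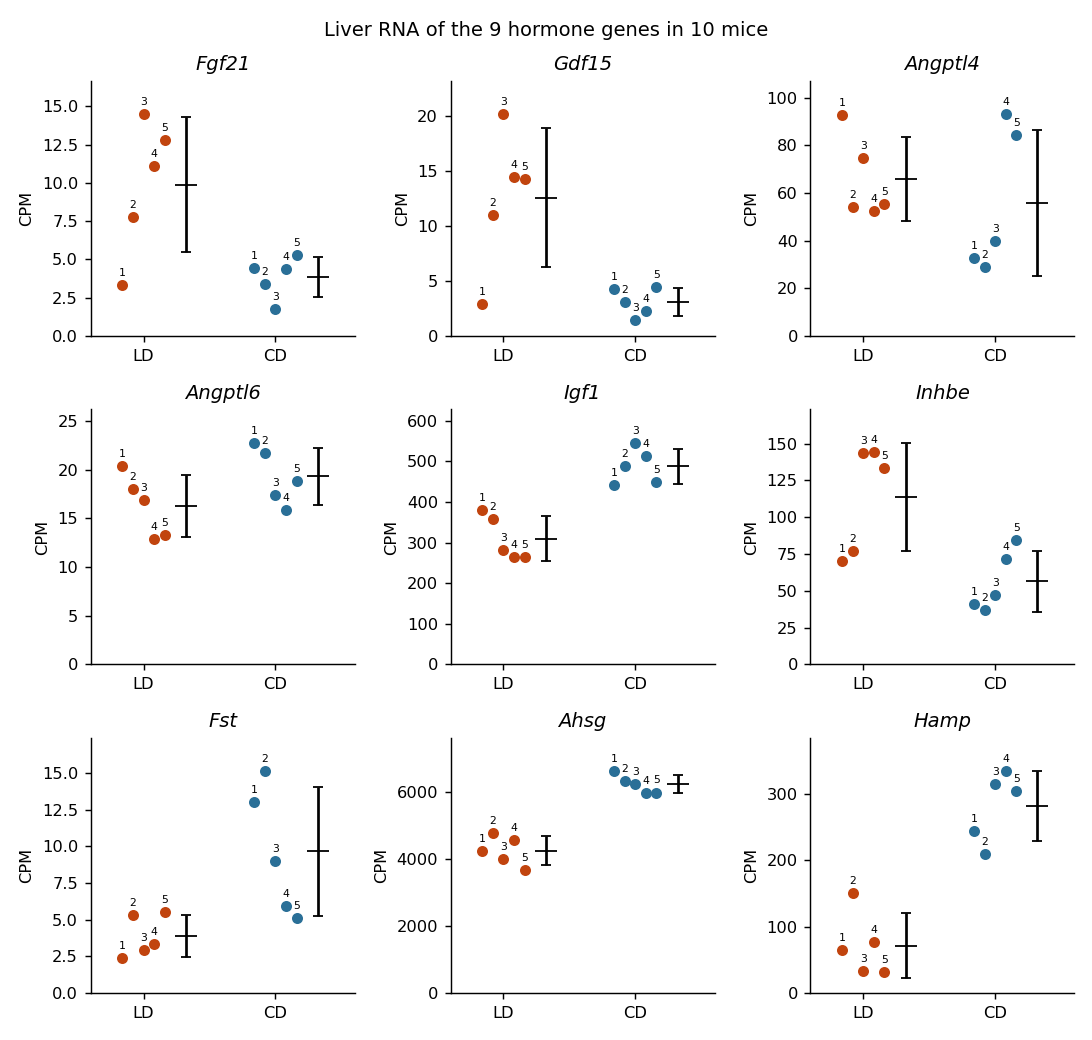
Liver RNA of each hormone gene in CPM (y axis, from 0) for the 5 LD and 5 CD mice, with the replicate number above each point and the mean ± SD as a black bar. The LD mice lie below the CD mice for Igf1, Ahsg and Hamp, and LD replicate 1 lies among the CD mice for Fgf21 and Gdf15.

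Among the stress-responsive hormones, Fgf21 (Entrez 56636, chr7:52869260-52870860 of mm9, minus strand) was at 3.36, 7.75, 14.5, 11.1 and 12.8 CPM in LD replicates 1 to 5. It was at 4.46, 3.42, 1.79, 4.35 and 5.27 CPM in CD replicates 1 to 5. LD replicates 2 to 5 lay above all CD mice, while LD replicate 1 was lower than every CD mouse except replicate 3, so the groups overlapped. The means were 9.90 ± 4.42 and 3.86 ± 1.33 CPM (SD, n = 5 each), which is a log2 fold change of 1.36 (SE 0.39) with an adjusted p of 0.0264 in edgeR's quasi-likelihood test. The call was lost without any 1 of LD replicates 3, 4 and 5 or CD replicates 2 and 4 (adjusted p up to 0.0656 in the same edgeR test), with log2 fold changes of 1.18 to 1.41, whereas without LD replicate 1 the log2 fold change was 1.58 (adjusted p 0.00175 in edgeR).

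Gdf15 (Entrez 23886, chr8:73153293-73155534, minus strand) was at 2.90, 11.02, 20.2, 14.5 and 14.3 CPM in LD replicates 1 to 5. It was at 4.27, 3.11, 1.48, 2.29 and 4.45 CPM in CD replicates 1 to 5. As for Fgf21, LD replicate 3 was the highest, CD replicate 3 the lowest, and LD replicate 1 lay within the range of the CD mice. The means were 12.6 ± 6.34 and 3.12 ± 1.27 CPM (SD, n = 5 each), which is a log2 fold change of 2.01 (SE 0.49) with an adjusted p of 0.0137 in edgeR. Its call held with each library left out (adjusted p 0.000396 to 0.0372 in edgeR), and the log2 fold change was 2.27 without LD replicate 1.

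Inhbe (Entrez 16326, chr10:126786458-126788828, minus strand) was at 70.3, 76.9, 143.5, 144.3 and 133.4 CPM in LD replicates 1 to 5. It was at 41.3, 37.1, 47.4, 71.5 and 84.7 CPM in CD replicates 1 to 5. LD replicates 3 to 5 lay above all CD mice, and LD replicates 1 and 2 lay below CD replicate 5. The log2 fold change was 1.01 (SE 0.30), from 113.7 ± 36.9 against 56.4 ± 20.7 CPM (SD, n = 5 each), with an adjusted p of 0.0336 in edgeR. The call was lost without any 1 of LD replicates 3, 4 and 5 or CD replicates 1, 2 and 3 (adjusted p up to 0.0780 in edgeR), with log2 fold changes of 0.89 to 0.95.

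The promoters of Fgf21 and Gdf15 are shown because these genes had the highest correlation across mice of any pair of members. Each is the 250 bases before the transcription start site (TSS), read from the NCBIM37 genome (the assembly of mm9) on the minus strand at chr7:52870861-52871110 and chr8:73155535-73155784. In Fgf21, capitals mark in order a match to TGATGNAAT, the composite ATF4 site, on the other strand at -140 to -132, the E box CACGTG at -50 to -45 and TATAAA at -28 to -23. In Gdf15 they mark TATAAA at -32 to -27.
Fgf21: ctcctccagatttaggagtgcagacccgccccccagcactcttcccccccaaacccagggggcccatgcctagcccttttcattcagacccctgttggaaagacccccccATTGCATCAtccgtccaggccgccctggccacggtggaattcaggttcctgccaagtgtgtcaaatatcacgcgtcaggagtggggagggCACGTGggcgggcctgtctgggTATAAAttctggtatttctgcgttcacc
Gdf15: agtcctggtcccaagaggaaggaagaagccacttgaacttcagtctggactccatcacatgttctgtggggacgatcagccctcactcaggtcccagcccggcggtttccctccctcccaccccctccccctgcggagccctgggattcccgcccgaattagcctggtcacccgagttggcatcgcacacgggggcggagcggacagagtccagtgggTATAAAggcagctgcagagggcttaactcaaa

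Motif strings were searched on both strands from 250 bases before to 50 after the TSS of 24655 promoters. TGATGNAAT occurred in 1.0% of promoters, CACGTG in 7.7% and TATAAA in 13.1%. TATAAA was found in 4 of the 9 hormone promoters, those of Fgf21, Gdf15, Angptl4 and Igf1. In Angptl4 it lay after the TSS, at 3 to 8 and 5 to 10, and in Igf1 at -123 to -118 and -114 to -109. The nuclear receptor string AGGTCA and the HNF4 string CAAAGTCCA were in none of the 9, against 14.4% and 0.5% of all promoters, which says only that these letters are not in these windows. A match is a description of the letters and not a site of binding.

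Of 13 receptors and regulators of Fgf21, 1 was higher on LD and 6 were lower, with a median log2 fold change of -0.35. The coreceptor gene Klb fell by 0.52 on the log2 scale, from 70.2 ± 5.68 to 48.8 ± 7.98 CPM (SD, n = 5 each, adjusted p 0.00254 in edgeR), and all LD mice lay below all CD mice. Fgfr2 fell by 0.35 and Fgfr3 by 0.46 (the latter not called by limma on log2(TPM + 1)), whereas Fgfr1 and Fgfr4 had changes of -0.21 and -0.36 that were not called. Among the transcription factors and coactivators, Mlxipl, the carbohydrate-responsive factor ChREBP, fell by 1.06 (adjusted p 8.6e-06 in edgeR) and Ppargc1a fell by 0.73. Ppara, the fatty acid-sensing receptor, rose by 0.34.

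Of 12 textbook target genes of Ppara, 8 were higher on LD and none lower, with a median of 0.58. The largest were the fatty acid transporter Cd36 (1.89), the pantetheinase Vnn1 (1.65), the lipid droplet coat Plin2 (1.17) and the pyruvate dehydrogenase kinase Pdk4 (1.11). Of 11 genes of the integrated stress response that were tested, 1 was higher and 1 lower, with a median of 0.22, and 4 were higher and 1 lower on log2(TPM + 1). Atf3 rose by 1.94, from 1.93 to 7.44 CPM, and Atf4 fell by 0.37, from 118.3 to 91.7 CPM.

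**Figure D2:**
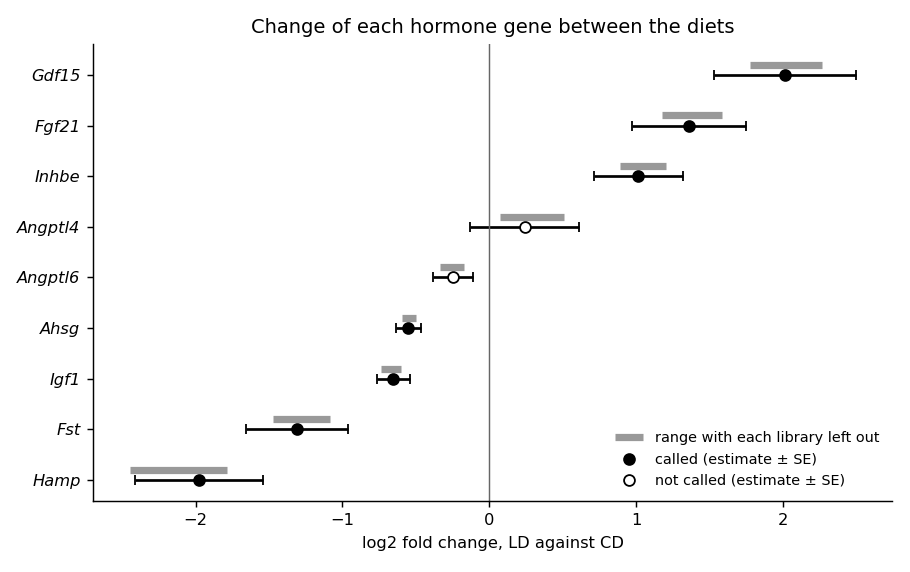
Log2 fold change of each hormone gene, LD against CD (x axis), with its SE as a bar, filled where called, and the range over 10 fits that each leave out 1 library in grey. Gdf15 lies at 2.01, Hamp at -1.98, and the grey ranges run from 0.07 to 0.51 for Angptl4 and from -0.34 to -0.17 for Angptl6.

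In the growth hormone and IGF axis, Igf1 RNA fell. Igf1 (Entrez 16000, chr10:87321010-87399792, plus strand) was at 379.3, 358.5, 282.9, 263.8 and 265.1 CPM in LD replicates 1 to 5. It was at 442, 489.7, 545.9, 513.3 and 449.8 CPM in CD replicates 1 to 5. All LD mice lay below all CD mice, and the log2 fold change was -0.66 (SE 0.11, adjusted p 0.000943 in edgeR), from 309.9 ± 54.9 against 488.1 ± 43.5 CPM (SD, n = 5 each). Of 19 genes of the axis 2 were higher and 4 lower, with a median of -0.41, and on log2(TPM + 1) 3 were higher and 3 lower, with a median of -0.25. The binding protein Igfbp2 fell by 1.79, from 329.3 to 95.2 CPM, the receptor Ghr fell by 0.32 (not called on log2(TPM + 1)) and the insulin receptor Insr fell by 0.47. Stat5a, among the counted transducers of the growth hormone signal, rose by 0.49. Socs2, a target and inhibitor of that signal, had a log2 fold change of -1.33 with an adjusted p of 0.158 in edgeR, and Igfals, the partner of Igf1 in plasma, had -0.48 with an adjusted p of 0.0702 in edgeR. Neither was called by edgeR, nor were Igfbp1 (-0.41) and Igfbp3 (0.36). DESeq2 called Igfals (adjusted p 0.0219), Igfbp3 (0.0431) and, among the FGF receptors, Fgfr4 (0.0346), and limma on log2(TPM + 1) called Igfbp3 (0.0214).

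In the activin system, follistatin RNA fell. Fst (Entrez 14313, chr13:115242470-115249159, minus strand) was at 2.35, 5.34, 2.92, 3.31 and 5.51 CPM in LD replicates 1 to 5. It was at 13.0, 15.1, 9.02, 5.94 and 5.09 CPM in CD replicates 1 to 5. CD replicate 5 lay below LD replicates 2 and 5, so the groups overlapped. The log2 fold change was -1.31 (SE 0.35, adjusted p 0.0180 in edgeR), from 3.88 ± 1.45 against 9.64 ± 4.37 CPM (SD, n = 5 each), and the call held with each library left out (adjusted p 0.0088 to 0.0473 in edgeR). Of 15 genes of the system that were tested, 3 were higher and 6 lower, with a median of -0.21, which was -0.11 on log2(TPM + 1). The activin subunit Inhbb (0.76) and Fstl1 (0.79) rose with Inhbe, and the subunit Inhba fell by 1.32. The receptor Acvr2b fell by 1.46 and Acvr2a by 0.41 (the latter not called on log2(TPM + 1)), and Inhbc, the neighbour of Inhbe on chromosome 10, was at 35.2 CPM on LD and 35.1 on CD.

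Of the angiopoietin-like factors, neither member was called. Angptl4 (Entrez 57875, chr17:33911845-33918520, minus strand) was at 92.8, 54.1, 74.6, 52.5 and 55.3 CPM in LD replicates 1 to 5. It was at 32.9, 29.0, 39.7, 93.02 and 84.4 CPM in CD replicates 1 to 5. CD mice fell into 3 low and 2 high values, with CD replicate 4 at the level of the highest LD mouse, and the log2 fold change was 0.24 (SE 0.37, adjusted p 0.677 in edgeR). Angptl6 (Entrez 70726, chr9:20678253-20684154, minus strand) was at 20.3, 18.0, 16.9, 12.9 and 13.3 CPM in LD replicates 1 to 5. It was at 22.8, 21.7, 17.4, 15.8 and 18.9 CPM in CD replicates 1 to 5. The groups overlapped, and the log2 fold change was -0.25 (SE 0.14, adjusted p 0.201 in edgeR). Of 15 genes of this family and of lipoprotein lipase that were tested, 2 were higher and 2 lower, with a median of 0.07. Lpl itself rose by 0.91 and its endothelial anchor Gpihbp1 by 0.34, while hepatic lipase (Lipc) fell by 0.72. Angptl8 had -0.38 and was not called.

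Ahsg (Entrez 11625, chr16:22892088-22899524, plus strand) was at 4253, 4775, 3999, 4585 and 3668 CPM in LD replicates 1 to 5. It was at 6629, 6338, 6260, 5973 and 5992 CPM in CD replicates 1 to 5. All LD mice lay below all CD mice, and the log2 fold change was -0.55 (SE 0.08, adjusted p 0.000464 in edgeR), with 4256 ± 444.3 against 6238 ± 271.4 CPM (SD, n = 5 each). In its fetuin and kininogen family 4 of 5 genes were lower and none higher, with a median of -0.39. Fetuin-B (Fetub) fell by 0.49, kininogen (Kng1) by 0.39 and the histidine-rich glycoprotein Hrg by 0.29 (not called on log2(TPM + 1)).

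Hamp (Entrez 84506, chr7:31727388-31729048, minus strand) was at 64.3, 151.4, 33.7, 77.3 and 31.1 CPM in LD replicates 1 to 5. It was at 244.2, 209.7, 316.2, 334.8 and 304.2 CPM in CD replicates 1 to 5. All LD mice lay below all CD mice, with LD replicate 2 the nearest to them. The means were 71.6 ± 48.8 and 281.8 ± 52.7 CPM (SD, n = 5 each), which is a log2 fold change of -1.98 (SE 0.44) with an adjusted p of 0.0104 in edgeR, and of -2.45 without LD replicate 2. The near-identical paralog Hamp2 had 11.8 ± 6.80 against 19.6 ± 6.27 CPM (SD, n = 5 each), which is a log2 fold change of -0.74 that was not called (adjusted p 0.187 in edgeR), and how reads were split between the 2 genes is uncertain. Of 25 genes of hepcidin control and iron handling that were tested, 4 were higher and 5 lower, with a median of -0.19, and 5 were higher and 3 lower on log2(TPM + 1), with a median of -0.12. Bmp6, the main inducer of hepcidin, fell by 1.05 and the inhibitory Smad7 by 0.53. The transferrin receptor Tfrc rose by 0.94, the ferritin light chain Ftl1 by 0.56 and Hfe by 0.34.

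Ahsg, Hamp and Igf1 fell without overlap of the mice and had a C/EBPα locus within 1 kb of the TSS. Fgf21, Gdf15 and Inhbe, which were higher on LD, had such a locus as well. At Hamp and Igf1 the locus had a peak in 3 of the 4 samples. The promoters of Ahsg and Hamp are shown as examples, chosen with the values known, and that of Igf1 held no match to the C/EBP, STAT or SMAD strings marked in them. Each is the 250 bases before the TSS in NCBIM37, at chr16:22891838-22892087 on the plus strand and chr7:31729049-31729298 on the minus strand. In Ahsg, capitals mark a match to TTGCNNAA, the C/EBP string, on the other strand at -32 to -25, which 10.1% of promoters held. In Hamp they mark the SMAD string GGCGCC at -109 to -104, in 14.9% of promoters, and the STAT string TTCNNNGAA at -97 to -89, in 8.0%.
Ahsg: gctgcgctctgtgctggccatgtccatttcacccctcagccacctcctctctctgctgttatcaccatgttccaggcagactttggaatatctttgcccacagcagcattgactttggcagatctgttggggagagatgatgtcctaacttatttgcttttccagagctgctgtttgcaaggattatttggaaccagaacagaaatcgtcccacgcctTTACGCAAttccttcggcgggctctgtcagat
Hamp: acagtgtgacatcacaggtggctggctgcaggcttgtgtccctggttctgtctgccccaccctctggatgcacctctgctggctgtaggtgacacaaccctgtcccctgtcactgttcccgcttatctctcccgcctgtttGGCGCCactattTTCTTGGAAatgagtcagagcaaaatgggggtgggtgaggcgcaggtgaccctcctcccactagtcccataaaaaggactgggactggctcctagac

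Other secreted liver factors and acute phase genes were counted beside the members. Of 12 other hepatokines 5 were higher and 2 lower, with a median of 0.26. The glycoprotein Gpnmb (4.53) and the chemotactic Lect2 (0.61) rose, and the stress-induced factor Manf fell by 0.55. Of 12 acute phase genes 8 were higher and 1 lower, with a median of 1.46. Lcn2 (4.32), Saa1 (2.86) and haptoglobin (Hp, 1.17) rose, and the fibrinogen chain Fgb fell by 0.76.

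On the TPM scale, on which transcripts are scaled by gene length and library size, the order of levels changed little at its top. Ahsg stood first on both diets at 5312 ± 364.7 TPM on LD and 7395 ± 235.7 on CD (SD, n = 5 each), followed by Hamp at 329.3 ± 218.4 and 1248 ± 248.7. On LD Inhbe came next (101.1 ± 33.6 TPM), then Igf1 (72.0 ± 12.3), Angptl4 (65.6 ± 17.5), Gdf15 (22.03 ± 11.1), Fgf21 (19.9 ± 9.19), Angptl6 (19.7 ± 3.71) and Fst (2.59 ± 1.05). On CD the order after Hamp was Igf1 (107.8 ± 12.1 TPM), Angptl4 (52.9 ± 29.4), Inhbe (47.5 ± 17.8), Angptl6 (22.1 ± 2.94), Fgf21 (7.29 ± 2.47), Fst (6.04 ± 2.72) and Gdf15 (5.13 ± 2.004). Neighbours from Inhbe to Angptl4 and from Gdf15 to Angptl6 on LD lay within their spread of each other, as did Angptl4 and Inhbe, and Fgf21, Fst and Gdf15, on CD.

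Across the 10 mice Gdf15 was the gene most like Fgf21 of all genes at a mean of at least 1 CPM, with r = 0.971 on log2 CPM, and r = 0.946 for deviations from the diet means. On the latter measure Tgfbr2 (0.980) and Tpra1 (0.958) came before Gdf15. The points share the diet groups and the libraries, and the values are descriptions. Fgf21 followed with Flot1 (0.956) and Mafk (0.954), and Gdf15 with Cdc42se1 (0.958) and Flot1 (0.956). Inhbe was most like Large (0.977), Stat5a (0.973) and Grina (0.967), and Igf1 most like Acadsb (0.986), Cyp2d13 (0.981) and Nox4 (0.980). The clotting factor genes F7 and F10 were among those most like Ahsg (0.979 and 0.977, after Tmem150a at 0.984), and F7 was also the one most like Hamp (0.968, then Afmid at 0.966 and Tmtc1 at 0.955). Fst was most like 1110004F10Rik (0.953), Tiam2 (0.946) and Ccm2l (0.938). Angptl4 was most like Tmco4 (0.905), Bfar (0.895) and Zfp872 (0.886), and Angptl6 most like Apip (0.956), Scarf1 (0.940) and Zfp955a (0.927).

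Among the members themselves, Fgf21 and Igf1 ran opposite to each other, with r = -0.855 for deviations from the diet means over the 10 mice. Angptl4 and Fst also ran opposite (-0.906 on the same measure). For Ahsg and Hamp this value was 0.757. For Igf1, Ahsg and Hamp the diets form separate clusters, so that the likeness over all 10 mice given above includes the difference between the diets.

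**Figure D3:**
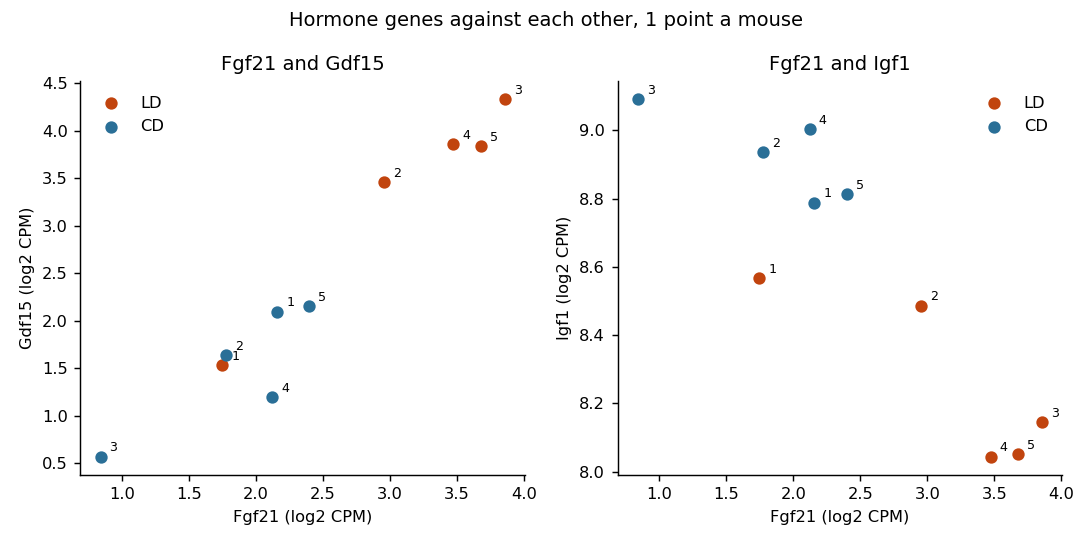
Log2 CPM of Gdf15 and of Igf1 (y axes) against Fgf21 (x axes), 1 point a mouse with its replicate number, LD in red and CD in blue. Gdf15 rises with Fgf21 within each diet, LD replicate 1 lies with the CD mice in the first panel, and Igf1 falls as Fgf21 rises.

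H3K27ac marks active promoters and enhancers, and its called intervals were compared as the percent of each gene with 20 kb on either side that they cover. Such coverage is not of the hormone gene alone. H3K27ac loci that reached into the Hamp window also held the starts of Hamp2, Usf2, Lsr and Fam187b. Those in the Gdf15 window also held the starts of Ssbp4, Lrrc25 and Pgpep1. An interval covered the TSS of 8 of the 9 genes in all 6 samples, and that of Hamp in 5 of 6, with none in LD replicate 3. Coverage at Hamp reached 46.2, 47.2 and 31.8% in LD replicates 1 to 3, and 55.8, 55.3 and 54.8% in CD replicates 1 to 3. The LD samples lay below the CD samples, by -13.6 percentage points (SE 4.08), with an adjusted p of 0.104 in limma over 18730 windows. Without LD replicate 3 the difference at Hamp was -8.64 points. At Igf1 it reached 65.2, 61.0 and 58.9% on LD and 70.2, 65.8 and 69.4% on CD, again with LD below CD, by -6.79 points (SE 2.47, adjusted p 0.156 in limma).

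Gdf15 went the other way, with 64.5, 60.7 and 72.1% on LD and 57.9, 56.4 and 57.9% on CD, a difference of 8.37 points (SE 3.08, adjusted p 0.161 in limma), which was 5.21 without LD replicate 3. At Angptl4, whose RNA was not called, the covered share reached 46.6, 47.5 and 48.3% on LD and 43.6, 43.6 and 43.3% on CD, 3.97 points higher (adjusted p 0.228 in limma). Divided by each sample's total covered length, the differences became 3.12 points at Gdf15, 0.0119 at Angptl4, -12.56 at Igf1 and -18.05 at Hamp, of which only Hamp was called (adjusted p 0.0397 in limma). LD samples lay above CD samples in 21.4% of all windows and below them in 5.42%. For Fgf21, Angptl6, Inhbe, Fst and Ahsg the groups overlapped, with differences of 2.04, -2.61, -1.73, -1.57 and -2.11 points. The same scaling by covered length moved these to -1.22, -7.78, -5.60, -3.83 and -7.47, with none called. With single samples left out, Angptl6 ranged from -3.49 to -1.31 (the latter without LD replicate 3) and Ahsg from -3.16 to -0.84 (the latter without CD replicate 3), and the sign at Fgf21, Inhbe and Fst was not the same in each such fit.

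None of the 9 windows was called by limma at an adjusted p under 0.05, against 4.62% of all windows, and 3 of 9 had an unadjusted p under 0.05, against 23.6% of all windows. An exact permutation test of 3 against 3 samples cannot go below 0.1. Hamp was called by limma when windows reached 50 kb to either side (adjusted p 0.0443), where 10% of all windows were called, and after that division (adjusted p 0.0397), where 3.86% were. The lists covered 149.8 to 160.4 Mb on LD and 139.7 to 145.4 Mb on CD, and the median difference over all windows was 0.80 points against -1.73 over the 9 genes. The median over the 9 genes was -0.47 without LD replicate 1 and -3.05 without LD replicate 2, against 0.74 and 0.68 over all windows. After division by covered length it was -5.60, against 0.0061 over all windows.

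Within 20 kb of the genes lay 33 H3K27ac loci, of which 22 (66.7%) were present in all 6 samples, against 59.5% in the series. At 1 locus all LD samples and no CD sample had an interval, where 3.89% of all loci were on 1 diet only. It lay at chr10:87303601-87306200, centred 16.1 kb before the Igf1 TSS, in an intron of the gene Gm16176 in the Gencode gene models.

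**Figure D4:**
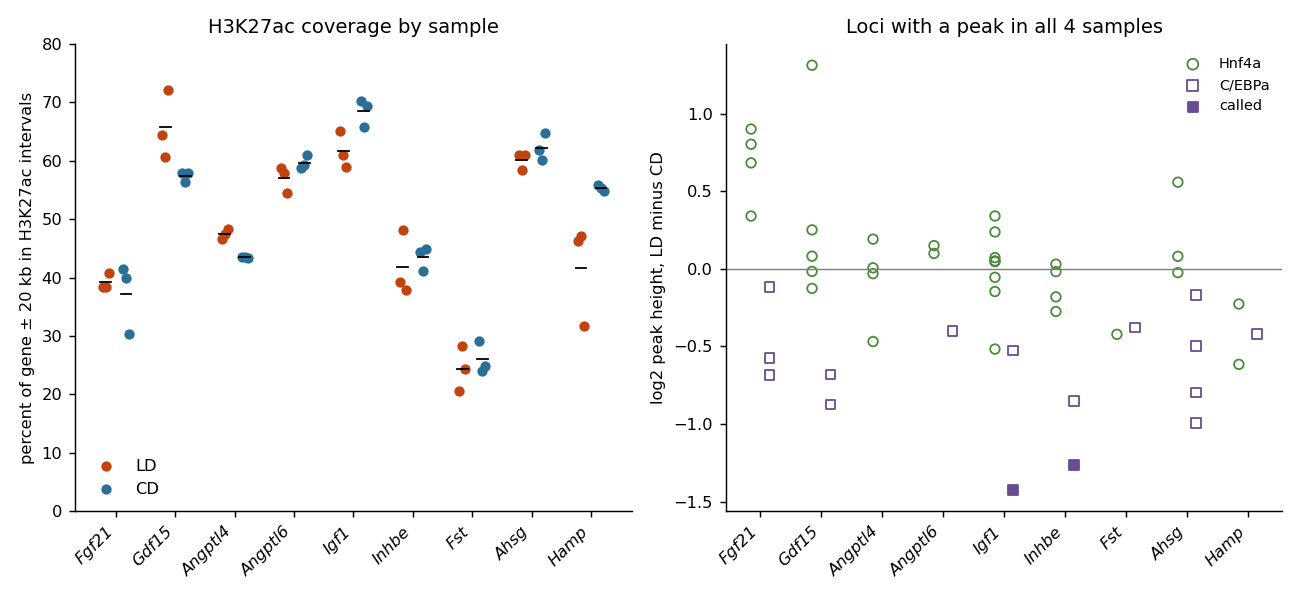
Left, percent of each gene ± 20 kb in H3K27ac intervals by sample (y axis from 0), with 3 LD samples in red, 3 CD samples in blue and the mean as a line. Right, log2 peak height on LD minus CD at loci with a peak in all 4 samples, where the 16 C/EBPα loci (squares) all lie below 0 in the heights as deposited (13 of 16 after quantile normalization) and the 2 filled ones, at Igf1 and Inhbe, were called.

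Hnf4α and C/EBPα are transcription factors that maintain the hepatocyte programme. Their own RNAs had log2 fold changes of -0.26 each (adjusted p 0.0176 for Hnf4a and 0.0202 for Cebpa in edgeR), below the fold change required for a call, which Cebpa passed with DESeq2's size factors. Loci with a peak of either factor in at least 2 samples lay within 1 kb of the TSS at 6 of the 9 genes, the same 6 for both, Ahsg, Fgf21, Gdf15, Hamp, Igf1 and Inhbe.

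Of 43 C/EBPα loci within 20 kb of the genes, 16 (37.2%) had a peak in all 4 samples, against 41.8% in the series, and their heights could be tested. All 16 were lower on LD in the heights as deposited, where 24.2% of all loci tested were higher. After quantile normalization 13 were lower and 3 higher, where 45% of all loci were higher. The median log2 difference was -0.63 as deposited, against -0.41 over all loci, and -0.28 after quantile normalization, against -0.07. Without CD replicate 1 the median as deposited was -0.38, against -0.15 over all loci. In that fit 2 of the 16 were higher on LD, against 40.3% of all loci. At 2 of the 16 the difference was called by limma, against 3.35% of all loci. The first was in an intron of Igf1 in the Gencode gene models, 43872 bases after its TSS, with heights (tags scaled to a common library size) of 19.5 and 38.0 on LD and 91.5 and 58.5 on CD. It fell by 1.43 on the log2 scale (SE 0.41, adjusted p 0.0302 in limma). The other lay at -3708 bases from the Inhbe TSS, with heights of 38.0 and 51.0 on LD and 115.5 and 97 on CD. It fell by 1.27 (SE 0.37, adjusted p 0.0339 in limma), while Inhbe RNA was higher on LD. Both LD samples lay below both CD samples at both loci, and leaving out samples moved the calls over all loci. Without LD replicate 1 or LD replicate 2 limma called 0 of all 13813 loci, with 485 and 527 at an unadjusted p under 0.05, so neither locus was called, while the log2 differences were -0.95 and -1.91 at Igf1 and -1.05 and -1.48 at Inhbe. Without CD replicate 1, 3 of the 16 were called, against 12.6% of all loci, and without CD replicate 2, 11 of the 16, against 36.9%.

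The central 200 bases of the 2 called loci are shown with the strand of the gene, from NCBIM37, at chr10:87364783-87364982 (plus) and chr10:126792437-126792636 (minus). The C/EBP string TTGCNNAA, in capitals, occurred 1 time at the Inhbe locus and not at the Igf1 locus. It was found at 15 of the 43 C/EBPα loci near the genes and at 40.6% of all C/EBPα loci.
Igf1 intron: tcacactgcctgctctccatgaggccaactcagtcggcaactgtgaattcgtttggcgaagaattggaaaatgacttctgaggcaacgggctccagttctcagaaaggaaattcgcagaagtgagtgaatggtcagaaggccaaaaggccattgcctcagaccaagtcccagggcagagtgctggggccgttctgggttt
Inhbe upstream: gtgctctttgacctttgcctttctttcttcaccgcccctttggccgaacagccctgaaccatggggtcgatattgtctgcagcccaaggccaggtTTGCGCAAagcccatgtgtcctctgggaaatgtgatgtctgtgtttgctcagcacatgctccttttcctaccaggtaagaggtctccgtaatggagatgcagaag

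At promoters the mean C/EBPα heights as deposited were also lower on LD, by differing amounts and without a call. At the Inhbe promoter, 648 bases before the TSS, they were 84.5 and 84.0 on LD and 173.5 and 133.5 on CD (log2 difference -0.85, adjusted p 0.109 in limma). At the Ahsg locus that covers the match shown above they were 57.0 and 67.0 on LD and 120.5 and 95.5 on CD (-0.80, adjusted p 0.159 in limma). At the Fgf21 promoter they were 20.5 and 13.5 on LD and 34 and 21 on CD (adjusted p 0.342 in limma). At 1026 bases before the Fgf21 TSS they were 25 and 23 on LD and 27 and 25 on CD (-0.12, adjusted p 0.891 in limma). At 731 bases before the Ahsg TSS they were 54 and 44 on LD and 62 and 48.5 on CD (-0.17, adjusted p 0.813 in limma). At both of these loci LD replicate 1 was not below CD replicate 2. At the Hamp promoter a peak was called in both CD samples, at 27 each, and on LD only in replicate 2, at 9.50.

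C/EBPα peaks on 1 diet only were at 4 LD-only and 3 CD-only loci, where 20.5% of all loci were on 1 diet only. Of these, 5 were at Igf1, where an LD-only locus 27628 bases after the TSS (heights 19.0 and 19.5) lay beside a CD-only locus at 27196 (34 and 16.5). The other two were an LD-only locus at -8842 bases from the Hamp TSS and a CD-only locus in an intron of Angptl4.

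Of 51 Hnf4α loci near the genes, 33 (64.7%) had a peak in all 4 samples, against 50.9% in the series. None of the 33 was called by limma and none had an unadjusted p under 0.05, and edgeR on the tag counts also called 0. Over all 23344 loci 0% were called by limma and 542 had an unadjusted p under 0.05. Of the 33, 19 were higher on LD, against 65.6% of all loci, and 8 were higher after quantile normalization, against 47.8% of all loci. CD replicate 1 had the lowest median height of the 4 Hnf4α samples (15.2 against 19.2 to 21.5), and the direction at these loci turned on the CD samples. Without CD replicate 1, 5 of the 33 were higher on LD (24.1% of all loci) and 3 were called (4.22% of all). Without CD replicate 2, 31 were higher (94% of all loci) and 12 were called (38.2% of all). At the Gdf15 locus at -5484 bases from the TSS, heights were 54.2 and 72.8 on LD and 17.5 and 36.5 on CD. This was the largest log2 difference of the 33, at 1.31 (unadjusted p 0.0529 in limma). The other tested loci of Gdf15 had -0.13, 0.08, 0.25 and -0.02. At the Inhbe promoter, 613 bases before the TSS, heights were 179.5 and 158 on LD and 113.8 and 255.5 on CD. The CD samples thus lay on either side of both LD samples there. Of the 51 loci, 1 was on CD only, in an intron of Fst 1605 bases after the TSS, at 15 and 23.5, against 11.4% of all loci on 1 diet only. AGGTCA was in 11 of the 51 loci (31.3% of all Hnf4α loci) and CAAAGTCCA in 2 (5.1%).

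PCHi-C lists the fragments that contact a captured promoter, scored by CHiCAGO against the background at that distance. The 2 replicates of a diet were pooled by the authors, so the diets are compared with no test. An interaction is a pair of a captured fragment and an other end, and for Igf1 2 captured fragments were counted, so that an other end can enter 2 times. At a score of at least 5, the promoters of the hormone genes had 174 interactions on LD and 193 on CD. Of these 130 were on both lists, 74.7% of the LD list and 67.4% of the CD list, against 69.6% and 70.3% for all baits. With other ends within 10 kb of each other counted as shared, the shares for the hormone genes were 92.0% and 87.6%. The interactions were unevenly spread, with 65 and 73 for Igf1 over its 2 fragments, 51 and 44 for Fst and 36 and 47 for Fgf21 on LD and CD. The Igf1 fragment that holds the TSS had 45 on LD and 43 on CD, and the neighbouring fragment had 20 and 30. Between them these 2 fragments also carried the name of the gene Gm16176. Hamp had 10 and 18, Ahsg 4 and 7, Angptl6 5 and 2, Gdf15 1 and 2, and Inhbe 2 and 0, and no captured fragment with an interaction covered Angptl4. The median bait had 6 interactions on LD and 5 on CD.

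**Figure D5:**
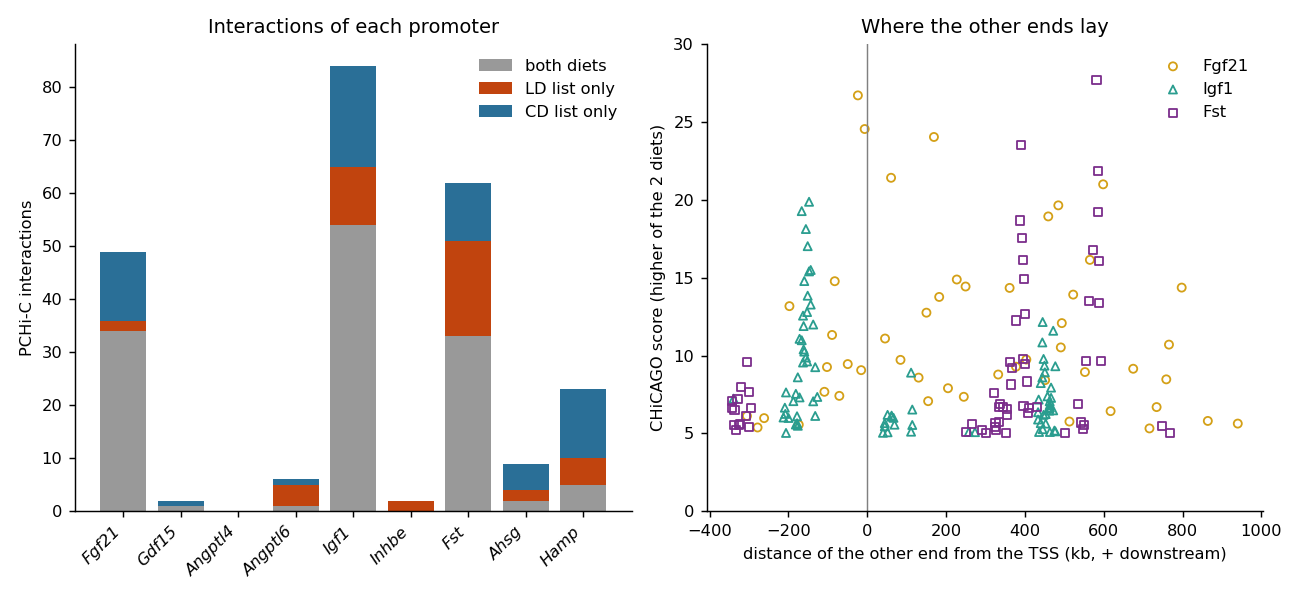
Left, number of PCHi-C interactions of each promoter (for Igf1 summed over 2 captured fragments), in grey on both diets, red on the LD list only and blue on the CD list only. Right, the higher of the 2 CHiCAGO scores (y axis) against distance from the TSS (x axis, kb) for Fgf21, Igf1 and Fst, whose other ends reach 940.2 kb, 477.2 kb and 767.1 kb.

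The Fgf21 promoter contacted other promoters. All 49 of its other ends on either diet carried a gene start or a captured fragment, against 13.7% of all interactions, and 40 of the 49 carried H3K27ac. The highest LD score was with the fragment of Mamstr, 23.8 kb before the TSS, at 26.7 on LD and 21.9 on CD, and on CD with that of Ruvbl2, 169.2 kb after it, at 24.03 and 23.64. Of the 49, 34 were on both lists, 2 on the LD list only and 13 on the CD list only.

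The Igf1 and Fst promoters contacted fragments with few or no genes. The 84 interactions of the 2 Igf1 fragments on either diet had 51 distinct other ends. A gene start or captured fragment was at 1 of these 51 and at 0 of 62 for Fst. For the Igf1 fragment that holds the TSS, 23 interactions lay before it, of which 21 were on both lists, and 27 lay after it, of which 17 were on both. The highest, 147.7 kb before the TSS, scored 14.0 on LD and 19.9 on CD, and its other end carried H3K27ac, Hnf4α and C/EBPα peaks. For Fst the highest on LD was 389.7 kb after the TSS (23.5 on LD and 18.5 on CD) and the highest on CD was 581.8 kb after it (20.4 and 27.7).

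At Hamp, 5 of the 10 LD interactions were also on CD, among them the promoter fragment of Usf2, 14.9 kb before the TSS, at 7.11 on LD and 9.01 on CD. For Angptl6 the only shared contact was Cdc37, 267.9 kb before its TSS, at 14.82 and 11.04. Both contacts of Inhbe, 96.6 and 114 kb before its TSS, were on the LD list only, with scores of 6.82 and 5.46. Over all 237 interactions of the hormone genes on either diet, 121 (51.1%) had H3K27ac at the other end, against 35.7% of interactions in the series. Counted 1 time each, the other ends numbered 204, of which 109 (53.4%) had H3K27ac. By gene, the share of interactions with H3K27ac at the other end was 81.6% for Fgf21, 77.8% for Ahsg and 43.5% for Fst and Hamp. It was 34.5% for Igf1, which had the most interactions. With few interactions each, Gdf15 and Angptl6 had 100% and Inhbe 0%.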

How the data were processed

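The members and gene lists were chosen with earlier results of these data known. For RNA-seq, read pairs were aligned by the authors to mm9 with STAR 2.5 and counted by strand on RefSeq genes with featureCounts 1.5.0-p1, and these counts were deposited raw. The deposited TPM values were computed by the authors from the counts, with gene lengths not given in the sources used here. The same table holds columns of the authors' own comparison (fold change, adjusted p and status), which were not used, and 0 columns of per-sample values were left out. H3K27ac intervals, deposited as coordinates without a signal, came from SICER run by the authors on single samples, so that the covered share of a window was used. Hnf4α and C/EBPα peaks came from HOMER, run on every sample with its input, and the deposited lists give a height (a signal scaled by the authors to a common library size) and a tag count. The CHiCAGO score of PCHi-C was computed by the authors on pooled replicates and deposited at 5 or more within 1 Mb, and the deposited TADs were not used here.

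The count analysis used edgeR 4.0.16 under R 4.3.3 (filterByExpr, TMM, robust quasi-likelihood fit), while coverage and log2 heights were fitted with limma 3.58.1. P-values were adjusted over all features tested. Peaks that overlapped were joined into loci, kept if 2 samples or more had a peak there, and heights were tested where all 4 samples had one. The genes named are the members, receptors, binding proteins and regulators of a member, at most 4 called genes of a list, and the 3 genes most like each member. Alternatives were DESeq2 1.42.0 and its size factors, no filter, limma on log2 TPM with a pseudocount of 1 or 0.1, a replicate block, a test against the fold change, other windows, scalings and scores, and the omission of each library. The count fit was tested on simulated data, where it called 43 of 67 genes changed by a fold of 1.5 and 65 of 67 changed by a fold of 2 among 13494. The labels tell replicates apart by number alone, so p-values measure the spread between these samples. Sequence came from NCBIM37, in which all 14321 captured fragments checked start at a HindIII site, through samtools 1.23.1 and Python 3.11.15.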

Additional observations from a re-analysis of the deposited data

Results flagged for a closer look

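For the 9 hormone genes and 54 genes of the lists, most of them named in the text, the 5 mice of each diet were compared, which made 126 groups. The other genes counted in the lists were not compared in this way. In 8 groups the highest or lowest mouse stood apart from the others by 0.713 to 0.812 of the group's whole range, which is past the 95% limit of Dixon's test, and chance alone gives this in about 1 in 20 groups. None of the 8 belongs to the 9 hormone genes themselves. LD replicate 1 had the lowest Atf3 of its group at 3.82 CPM, where the other LD mice had 7.80 to 8.76, and it also had low Fgf21 and Gdf15. The same mouse had the highest Saa1 on LD at 115.1 CPM. LD replicate 5 had the highest Inhba (4.28 CPM) and Fgfr3 (27.1 CPM) on LD, and LD replicate 4 had the lowest Igfbp1 (13.9 CPM) and the highest Hnf4a (458.9 CPM). On CD, replicate 5 had the lowest Klb (60.3 CPM) and replicate 3 the highest Ghr (905.9 CPM).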

How the results depend on the processing

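All 9 hormone genes kept the direction of their RNA change under the 17 alternatives, and 5 to 7 were called. Calls of Igf1, Fst, Ahsg and Hamp held in each of the 17. Fgf21 lost its call without a filter on low counts (adjusted p 0.0508 in edgeR), Inhbe likewise (0.0572), and both did so when tested against the fold change, where 1378 of all genes were called. The replicate numbers do not pair the mice (correlations of deviations -0.141 to 0.241). With a replicate block the adjusted p in edgeR was 0.109 for Fgf21 (log2 fold change 1.28) and 0.109 for Gdf15 (1.89), 5 members were called, and all genes called numbered 3173. For H3K27ac 1 member window, Hamp, was called at 50 kb and 1 after scaling by covered length. Over all H3K27ac windows calls went from 865 to 498 at 10 kb, 2071 at 50 kb and 93 with a replicate block, and to 0 to 919 with 1 sample left out (0 without CD replicate 1, 38 without CD replicate 2, 71 without CD replicate 3, 275 without LD replicate 2 and 208 without LD replicate 3). The Fgf21 window turned to -2.07 points at 10 kb, -1.22 after scaling and -1.43 without CD replicate 3 (omissions gave -1.43 to 4.17). Inhbe turned to 2.87 at 50 kb and 0.236 without LD replicate 3 (-4.96 to 0.236), and Fst to 0.357 without LD replicate 1 (-3.50 to 0.357). For Hnf4α quantile normalization called 3 member loci and 1545 of all, missing heights set to the lowest called 3 of all, and omissions called 0 to 12 and 0 to 8918 (3 and 985 without CD replicate 1, 12 and 8918 without CD replicate 2). For C/EBPα quantile normalization called 2264 loci, missing heights 0 member loci and 36 of all, a replicate block 0 and 35, and omissions 0 to 11 and 0 to 5096 (0 without LD replicate 1 or 2, 1734 of all without CD replicate 1, 11 and 5096 without CD replicate 2). With 1 sample left in a diet, that sample is assumed to vary like the other diet. Loci on 1 diet near the genes numbered 9, 16 at 50 kb and 9 to 24 with 1 sample left out, since 1 sample was then enough, and 24 came without C/EBPα LD replicate 2. At a CHiCAGO score of at least 10, 35 interactions were shared in place of 130, as fewer were listed. The causes of the other changes were not tested. With 2 samples per diet for each factor, and pooled PCHi-C lists, single samples set many of these values.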
